A study of Bos taurus with 15 samples.

Results

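The ETCHbox homeobox genes were followed in primary bovine fetal fibroblasts (BFFs) that had been made to express one of them. They were taken as every row of the deposited count table that carries a gene name in place of an Ensembl identifier, which gave 5 of 21665 rows: ARGFX, LEUTX, TPRX1, TPRX2 and TPRX3. The fibroblasts grew out from the skin of 1 fetus of 6 months and were used at passage 4. They were electroporated with the empty vector as a control (4 samples), WT ARGFX (4 samples), LEUTX (4 samples) or mutant ARGFX (3 samples), all in the same plasmid with a constitutive CMV promoter, and all cultures, controls included, were kept in puromycin at 4 μg/ml to select transfected cells. RNA was taken after 72 h. The mutant plasmid carries an ARGFX allele with a small frameshifting deletion. The study describes its predicted product as truncated before the homeodomain, the part that the homeobox encodes. The study left out a further mutant ARGFX culture that clustered with WT ARGFX samples. Each ARGFX and LEUTX construct ends in the same linker and 3xFLAG tag.

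ETCHbox genes are homeobox genes of the PRD class that arose in placental mammals by duplication and rapid divergence of CRX, a gene of the OTX family. They encode DNA-binding proteins and are known for expression in the embryo before implantation and for near silence in most other tissues. A fibroblast therefore offers a background in which 1 member can be supplied from a plasmid and the other members read for a response. The question for these rows was whether a supplied ETCHbox gene was accompanied by counts for another.

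In these cells the answer rested on few counts. ARGFX and LEUTX were abundant where they had been transfected. In samples that had received another plasmid, ARGFX reached at most 5.67 expected counts, LEUTX at most 11.29, TPRX1 at most 3 and TPRX3 at most 8, and TPRX2 had none in any of the 15 samples. LEUTX, with 7.19, 11.29 and 1.03 counts in the mutant ARGFX samples, was called higher than control by edgeR, but it entered that fit only through the LEUTX samples, its groups overlapped (exact permutation p = 0.114) and the call was lost in a fit to the mutant and control samples alone (adjusted p = 0.1). No other untransfected ETCHbox row was called in either direction in the 3 comparisons with control, by edgeR or by DESeq2. The TPRX rows failed the filter on low counts, however, so the main edgeR fit could not call them. TPRX2, with no counts, entered no fit. DESeq2 gave no adjusted p for TPRX1, nor for TPRX3 with mutant ARGFX. TPRX3 with WT ARGFX, when the filter was removed, was the 1 row other than LEUTX with an unadjusted p under 0.05.

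**Figure D1:**
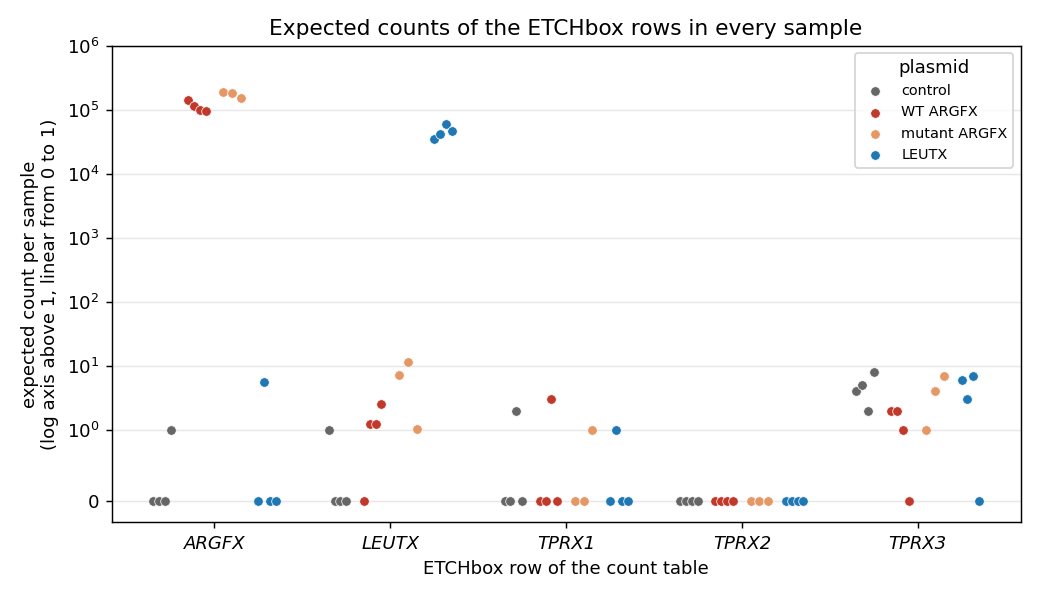
Expected count of each ETCHbox row in each of the 15 samples, coloured by plasmid; 1 point is 1 sample, and the vertical axis is logarithmic above 1 and linear below. ARGFX and LEUTX reach 34831 counts or more in the samples given that gene, and all other points lie at 11.29 or lower.

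The total expected count ranged from 25947911 to 41554242 per sample. A floor of 3 counts was taken as the most that a count of 0 in a group allows. It corresponded to 0.0229 to 0.029 CPM (counts scaled to a common library size) when the samples of a group were pooled. No samples of a group agreed within sampling noise. 1 WT ARGFX sample was called unnumbered b because its column shares a header with another WT ARGFX column (unnumbered a). It lay 70.3 to 73.3 from the others of its group in log2 CPM distance, against 40.2 to 42.8 among those. The control samples lay 57 to 81.4 from each other. Of 10 fibroblast markers, the 4 that could be paired with a row come from the study's list of genes higher with WT ARGFX. They were abundant in every sample and varied between plasmids: COL1A1 ranged from 10200 to 23620 CPM over the samples, COL1A2 from 10170 to 22730, COL3A1 from 1465 to 6320 and FN1 from 1733 to 9438. The 18 markers of other cell types could not be paired and were not analysed here. The samples came from separate transfections of cells from the same fetus, so p-values measure the spread between cultures and not between animals.

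ARGFX, whose human counterpart is among the ETCHbox genes switched on early in the embryo, was read first in every sample. It checks the labels of the ARGFX plasmids against those of control and LEUTX. WT and mutant ARGFX are counted in the same row, so their labels were not checked against each other in this way. The expected counts of ARGFX in the control samples were 0, 0, 0 and 1. With WT ARGFX they were 140392, 114476, 100839 and 94460, in the order replicate 1, replicate 2, unnumbered a and unnumbered b. With mutant ARGFX they were 191985, 185789 and 150882. Every sample labelled for either ARGFX plasmid was thus far above every control sample. Of all rows with any count, 10.1% lay above control in every sample with WT ARGFX and 9.2% with mutant ARGFX. ARGFX took 0.287% to 0.448% of all counts in the WT ARGFX samples and 0.363% to 0.651% in the mutant ARGFX samples, and ranked between 8 and 30 among all rows by count, not corrected for transcript length.

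On the scale of CPM with TMM-adjusted library sizes, ARGFX averaged 3455 ± 702.5 CPM (SD, n = 4) with WT ARGFX and 5407 ± 1744 CPM (SD, n = 3) with mutant ARGFX. Relative to the single control count, the ratio of rates was 382200 with WT ARGFX (95% counting interval 68590 to 15090000) and 568400 with mutant ARGFX (102000 to 22450000). edgeR's quasi-likelihood test gave log2 fold changes of 18.02 (SE 0.53, adjusted p = 8.69e-13) and 18.66 (SE 0.54, adjusted p = 1.49e-12). These fitted values depend on how edgeR treats counts near 0, and the intervals cover counting error only. Of the 14264 rows tested, 6.15% were called higher and 6.86% lower with WT ARGFX, and 1.26% higher and 2.57% lower with mutant ARGFX, at an adjusted p under 0.05 and a fold change over 1.5. ARGFX was 1 of these calls in each comparison, as the transfection itself sets.

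LEUTX, a divergent member known in human as an activator of early embryonic genes, showed the same separation in its own samples. Its expected counts with LEUTX were 34831, 42436, 61310 and 46006. Its counts in the control samples were 1, 0, 0 and 0, and the groups did not overlap, where 16.6% of the rows with any count lay above control in this way. LEUTX averaged 1533 ± 209 CPM (SD, n = 4) in the LEUTX samples, 0.129% to 0.173% of all counts. The ratio of rates to control was 171900 (95% counting interval 30850 to 6790000). The edgeR log2 fold change was 16.84 (SE 0.42, adjusted p = 2.93e-14), where 12.8% of the rows tested were called higher and 14.0% lower. LEUTX was 1 of these calls, as the transfection itself sets, and it passed the filter on low counts only through these samples. The highest LEUTX sample exceeded the lowest by 1.36 times, a narrower range than the 1.48 times of ARGFX among WT ARGFX samples and the 1.94 times among mutant ARGFX samples. Transcript lengths were not used here, so the CPM of LEUTX and ARGFX were not compared with each other.

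The WT and mutant ARGFX plasmids were compared to see whether they gave the same ARGFX CPM. ARGFX stood at 4505, 3175, 3039 and 3100 CPM in the WT ARGFX samples. In the mutant ARGFX samples it stood at 6211, 6605 and 3407 CPM. Mutant replicates 1 and 2 lay above every WT ARGFX sample, whereas mutant replicate 3 lay between WT replicate 1 and the other WT samples, so the groups overlapped. The mutant mean was 1.57 times the WT mean (exact two-sided permutation test over samples, p = 0.114, where the smallest p this design can give is 0.0571). Without WT ARGFX unnumbered b, the sample that stood apart within its group, the ratio was 1.51 (exact permutation p = 0.2). edgeR gave a log2 fold change of WT over mutant of -0.65 (SE 0.24, p = 0.0176, adjusted p = 0.275), which was not called, and 1.12% of the rows tested were called lower and 0.386% higher in this comparison. Both alleles are counted in the same row, but the mutant construct is shorter and CPM was not corrected for transcript length. The ratio is therefore one of counts and not of transcript numbers. How the shortened transcript of the mutant construct pseudoaligned to the ARGFX sequence in the reference was not tested.

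**Figure D2:**
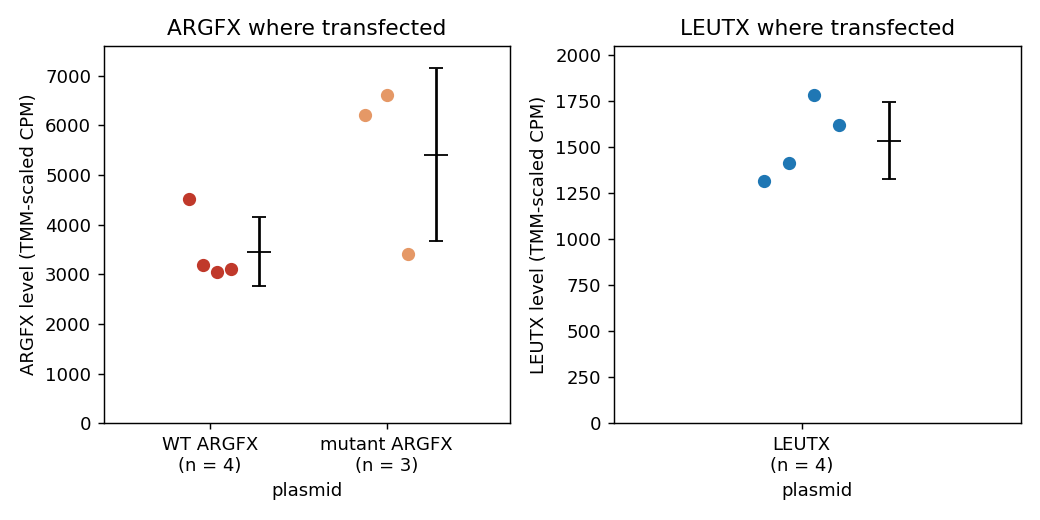
ARGFX level in WT ARGFX and mutant ARGFX samples, left, and LEUTX level in LEUTX samples, right, in TMM-scaled CPM on linear axes from 0; points are samples, and the bar beside them is the mean ± SD. 2 of 3 mutant ARGFX samples lie above all WT ARGFX samples, and the third lies within their range.

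Did either ARGFX plasmid bring LEUTX with it? The expected counts of LEUTX with WT ARGFX were 0, 1.24, 1.23 and 2.55, against 1, 0, 0 and 0 in the control samples. The mean level was 0.0391 ± 0.0419 CPM (SD, n = 4) with WT ARGFX and 0.00891 ± 0.0178 CPM (SD, n = 4) in control. The groups overlapped, and the exact two-sided permutation test gave p = 0.371. The ratio of rates was 4.25 (95% counting interval 0.475 to 200.8), and edgeR gave a log2 fold change of 1.70 (SE 1.46, adjusted p = 0.412), and between 0.871 (without unnumbered b, which held the most LEUTX of its group) and 3.397 (without control replicate 1) as each sample was left out, with adjusted p from 0.254 to 0.727. The pooled LEUTX level with WT ARGFX was 0.00249% (counting interval 0.000809% to 0.00582%) of its mean level in the LEUTX samples.

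With mutant ARGFX the LEUTX counts were higher. They were 7.19 in replicate 1, 11.29 in replicate 2 and 1.03 in replicate 3, or 0.226, 0.391 and 0.0226 CPM. Replicates 1 and 2 exceeded every control sample, but replicate 3 lay below control replicate 1, which stood at 0.0356 CPM, so these groups overlapped too. edgeR called LEUTX higher, with a log2 fold change of 3.87 (SE 1.11, adjusted p = 0.036), in a comparison where 1.26% of the rows tested were called higher. The exact permutation test over the samples gave p = 0.114, with 0.0571 the smallest possible. The ratio of rates was 20.4 (95% counting interval 3.25 to 848.9), from 19 rounded counts against 1. This interval treats the rounded fractional counts as whole reads and leaves out the spread between samples. The highest LEUTX level among the mutant ARGFX samples was 17.3 times the lowest.

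That call depended on the fit and on single samples. It was lost in a fit to the mutant ARGFX and control samples alone (adjusted p = 0.1) and when control replicate 2, 3 or 4 or mutant replicate 1 or 2 was left out (adjusted p = 0.0817, 0.0749, 0.0861, 0.102 and 0.136), and it held with DESeq2 (adjusted p = 0.00587). LEUTX passed the filter on low counts only through the LEUTX samples, which also entered the estimate of its spread. The pooled level with mutant ARGFX was 0.012% (counting interval 0.00722% to 0.0187%) of that in the LEUTX samples. The direct comparison of WT with mutant ARGFX gave a LEUTX log2 fold change of -2.18 (SE 0.82, adjusted p = 0.271), which was not called.

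ARGFX was read in the same way in the LEUTX samples. Its expected counts were 0, 5.67, 0 and 0, all of them in replicate 2, against 0, 0, 0 and 1 in control. The means were 0.05 ± 0.1 CPM (SD, n = 4) and 0.00953 ± 0.0191 CPM (SD, n = 4), and the exact two-sided permutation test gave p = 1.0. ARGFX passed the filter on low counts only through the ARGFX samples, which also entered its spread, and edgeR gave a log2 fold change of 2.06 (SE 1.74, adjusted p = 0.356), which turned to -1.69 (adjusted p = 0.56) without LEUTX replicate 2. The ratio of rates was 5.59 (95% counting interval 0.678 to 257.0), so a rise of that size was neither shown nor shown to be absent.

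**Figure D3:**
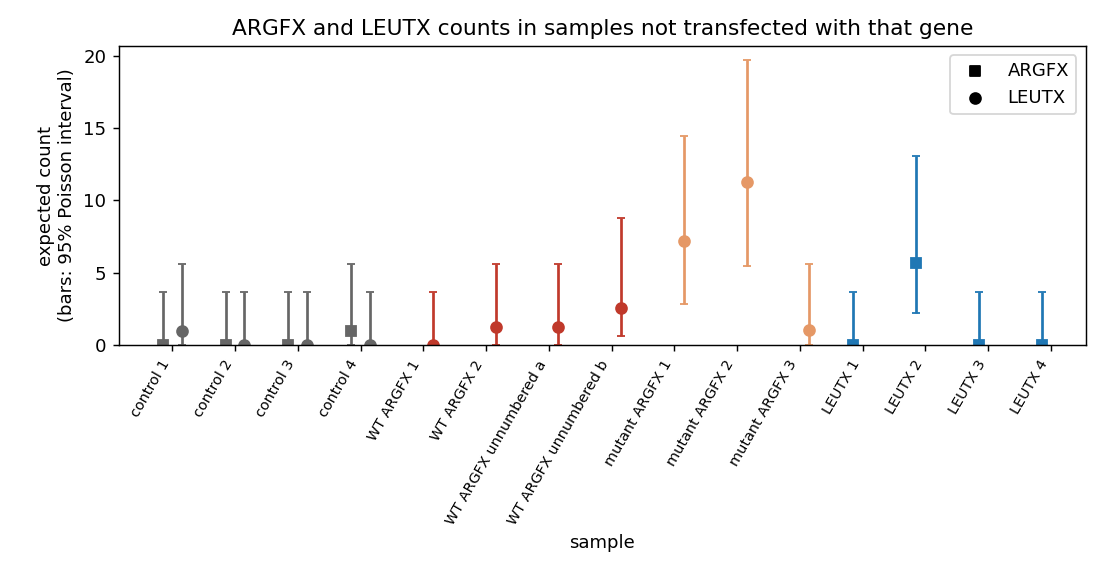
Expected counts of ARGFX (squares) and LEUTX (circles) in each sample not transfected with that gene, coloured by plasmid, with exact 95% Poisson intervals of the rounded counts. The highest values are LEUTX in mutant ARGFX replicates 2 (11.29) and 1 (7.19) and ARGFX in LEUTX replicate 2 (5.67); all other points lie at 2.55 or lower.

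The small counts had a numerical property that bears on how they can be read. kallisto shares a read that is compatible with several transcripts among them, which leaves fractions. In 7 of the 15 samples ARGFX and LEUTX both had fractional values, and all 7 were samples transfected with one of these genes. In each, the fractions of the 2 rows summed to a whole number. In mutant ARGFX replicate 1, 191984.81 for ARGFX and 7.19 for LEUTX summed to 191992, and in mutant replicate 2 the sum was 185800. In LEUTX replicate 2, 42436.33 for LEUTX and 5.67 for ARGFX summed to 42442. The largest distance of any sum from a whole number was 0.00259. Of the 21664 other rows, LEUTX was the 1 row that complemented ARGFX to within 0.005 in all 7 samples, and for the next closest row the largest distance was 0.1423.

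The fractional samples comprised every sample with ARGFX plasmid except WT replicate 1, where LEUTX was at 0, and LEUTX replicate 2, the 1 LEUTX sample with any ARGFX. The counts of the untransfected gene in the transfected samples were therefore, wherever above 0, fractional and complementary to those of the transfected gene. Single whole counts of ARGFX or LEUTX occurred in 1 control sample each. The untransfected gene amounted to between 6.82 (mutant replicate 3) and 133.7 (LEUTX replicate 2) ppm of the transfected one's counts, with 37.5 and 60.8 in mutant replicates 1 and 2 and 10.8, 12.2 and 27.0 in the WT samples above 0. Mutant replicate 3 had the least ARGFX of the mutant samples and the fewest LEUTX counts. WT replicate 1, with the most ARGFX of its group, had none. The constructs share their linker and tag, and whether the reference sequences for these rows held them is not given in the sources used here. The part of read sharing in the LEUTX call was not tested.

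The TPRX genes are the tetrapeptide repeat members of the family and take part in the opening of the embryonic genome in human. None was transfected. TPRX2 had 0 counts in all 15 samples, which by the floor of 3 counts allows a level of up to 0.027 CPM in control, 0.0229 with WT ARGFX, 0.029 with mutant ARGFX and 0.0252 with LEUTX. The exact two-sided 95% Poisson intervals, used for the other rows, reach 0.0332, 0.0282, 0.0357 and 0.0309 CPM in the same order. TPRX1 had 2 counts in control replicate 3, 3 in WT ARGFX unnumbered a, 1 in mutant ARGFX replicate 3 and 1 in LEUTX replicate 2, and 0 in the remaining samples. TPRX1 was thus seen in 1 sample of every group, and the exact permutation test against control gave p = 1.0 for each of the 3 plasmids. Its ratio of rates to control was 1.27 (counting interval 0.146 to 15.3) with WT ARGFX, 0.538 (0.00911 to 10.33) with mutant ARGFX and 0.47 (0.00789 to 8.95) with LEUTX, intervals too wide to show either a change or its absence.

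TPRX3 had more counts than TPRX1 or TPRX2. They were 4, 5, 2 and 8 in the control samples, or 0.143, 0.181, 0.0687 and 0.305 CPM. With WT ARGFX the TPRX3 counts were 2, 2, 1 and 0, or 0.0642, 0.0555, 0.0301 and 0 CPM. Every WT ARGFX sample lay below every control sample, but control replicate 3 and WT replicates 1 and 2 had the same count of 2 and were separated by library size alone. Of the rows with any count, 10.3% lay below control in this way, and 1.03% of the rows with a count that failed the filter on low counts. The means were 0.0375 ± 0.0288 CPM (SD, n = 4) with WT ARGFX and 0.174 ± 0.0989 CPM (SD, n = 4) in control, and the exact two-sided permutation test gave p = 0.0286, the smallest this design allows and 1 of 9 such tests on these rows. Without unnumbered b, which had no TPRX3, the WT ARGFX mean was 0.0499 CPM, still below control, and the exact permutation p was 0.0571, again the smallest possible.

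TPRX3 failed the filter on low counts and had no place in the main edgeR fit. With the filter removed it had a log2 fold change of -2.08 (SE 0.93, adjusted p = 0.126) and was not called. The ratio of rates was 0.223 (95% counting interval 0.0652 to 0.619), from 5 counts against 19. This interval pools the samples of a group and leaves out the spread between them. With mutant ARGFX the TPRX3 counts were 1, 4 and 7, the ratio of rates to control was 0.679 (0.301 to 1.47) and the exact permutation p was 0.343. With LEUTX they were 6, 3, 7 and 0, the ratio was 0.784 (0.377 to 1.61) and the exact permutation p was 0.6. Both groups overlapped the control samples. The difference in TPRX3 between WT and mutant ARGFX, tested without the filter, had a log2 fold change of -1.47 (SE 1.00, adjusted p = 0.752 by edgeR). No rise of a TPRX row was shown with any plasmid by these tests. TPRX2 had no counts to test, and the TPRX1 intervals were too wide to show a rise or its absence. With mutant ARGFX the exact permutation p cannot fall below 0.0571.

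**Figure D4:**
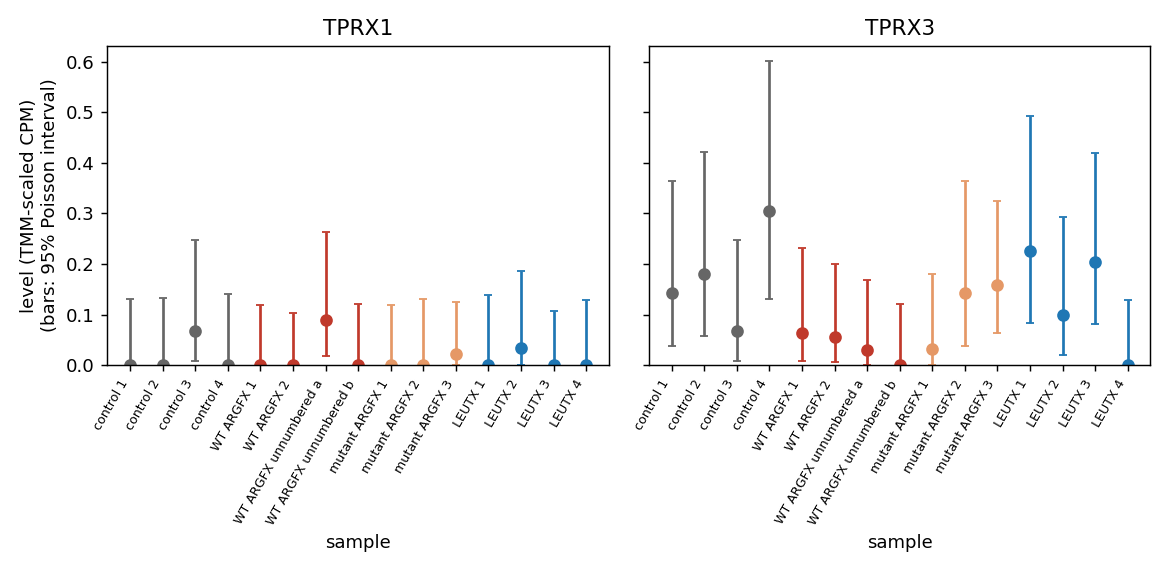
TPRX1 (left) and TPRX3 (right) in TMM-scaled CPM in each sample, coloured by plasmid, with exact 95% Poisson intervals scaled in the same way; TPRX2 is left out because it had no counts. TPRX3 lies between 0.0687 and 0.305 CPM in control and between 0 and 0.0642 CPM with WT ARGFX, with intervals that overlap.

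The rows whose pattern over the 15 samples was most like that of a transfected gene were found by the Pearson correlation of log2(CPM + 1) among 14262 rows. The samples of a group share their plasmid, so these correlations largely describe differences between groups and carry no test. For ARGFX the closest was ENSBTAG00000039958.3 (r = 0.97), at 26.9 ± 2.56 CPM in control, 41.4 ± 1.85 with WT ARGFX, 44.1 ± 1.68 with mutant ARGFX and 27.3 ± 1.07 with LEUTX (SD). The most opposed row, ENSBTAG00000017213.3 (r = -0.96), stood at 70.4 ± 2.58, 58.8 ± 1.26, 58.5 ± 3.08 and 71.8 ± 1.58 CPM in the same order. Both shifts were graded, whereas ARGFX itself went from nearly 0 to at least 3039 CPM. No other row had 10 or more counts in each of the 7 ARGFX samples and 10 or fewer in the other 8 together.

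Symbols could be paired with 220 rows, all from the study's own list of genes higher with WT ARGFX, so a rise with WT ARGFX among them is given by the choice. The closest to ARGFX among these were SUOX, the mitochondrial sulfite oxidase (r = 0.95), SMARCA1, a chromatin remodelling ATPase (r = 0.93), NLRX1, a mitochondrial regulator of innate immune signalling (r = 0.93), NYNRIN (r = 0.93) and ALDH1L2, a mitochondrial folate enzyme (r = 0.92). SUOX averaged 9.88 CPM in control, 17.4 with WT ARGFX, 15.5 with mutant ARGFX and 9.42 with LEUTX. SMARCA1 averaged 28.6, 51.2, 44.6 and 28.9 CPM in the same order.

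For LEUTX the closest row was ENSBTAG00000046944.2 (r = 0.9994), which had 10 to 14 counts in each LEUTX sample and 0 in the other 11, a mean of 0.393 ± 0.0132 CPM (SD, n = 4) with LEUTX. This row passed the filter on low counts only through the LEUTX samples, so its correlation largely follows from being counted there and nowhere else. The most opposed was ENSBTAG00000015751.4 (r = -0.9961), at 9.92 ± 0.742 CPM in control, 10.1 ± 1.05 with WT ARGFX, 9.65 ± 1.07 with mutant ARGFX and 1.01 ± 0.13 with LEUTX. LEUTX was accompanied by 24 other rows with 10 or more counts in each LEUTX sample and 10 or fewer in all other samples together. This count over 4 samples of 1 plasmid cannot be set against that for ARGFX, which asked for counts in 7 samples of both its plasmids. Among rows with a symbol the closest were CALCB, which encodes a calcitonin gene-related peptide (r = 0.98), ACTG2, a smooth muscle actin (r = 0.95), ACY1, an aminoacylase (r = 0.94), EPHX1, an epoxide hydrolase (r = 0.93), and AARSD1 (r = 0.92). CALCB averaged 6.79 CPM in control, 19.2 with WT ARGFX, 9.13 with mutant ARGFX and 570.9 with LEUTX, and ACTG2 306.2, 525.7, 424.9 and 1966 CPM.

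**Figure D5:**
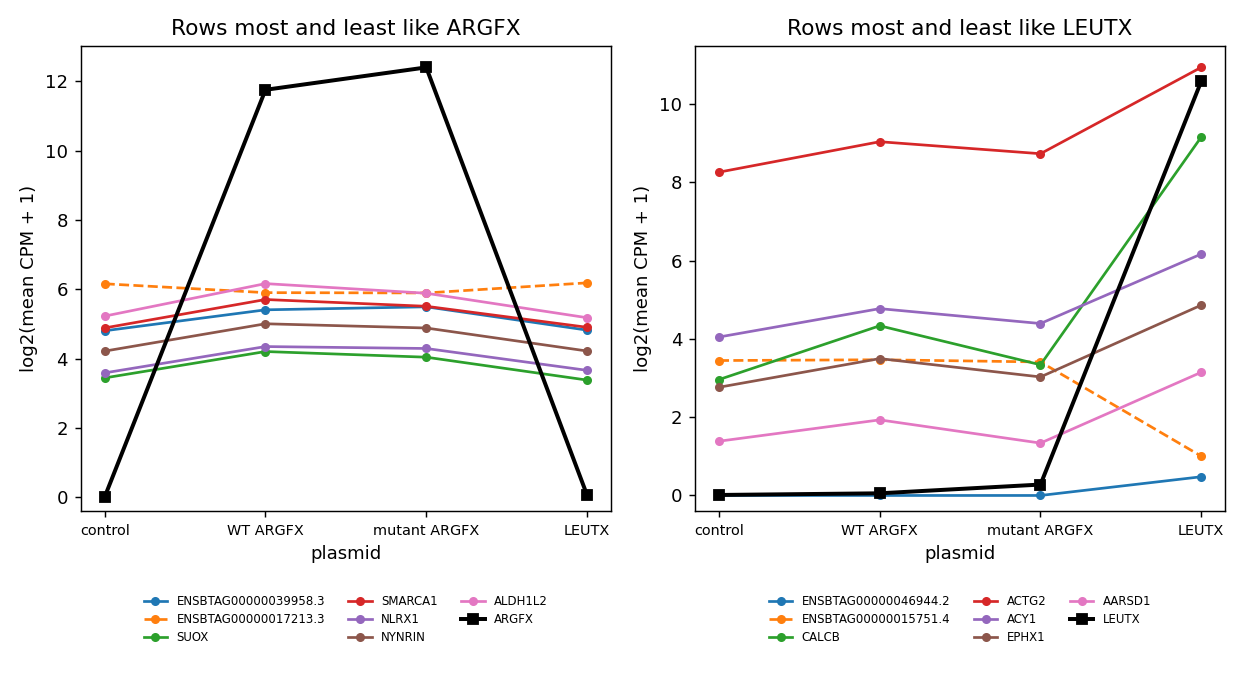
Mean level per plasmid, as log2(mean CPM + 1), of ARGFX (left) and LEUTX (right) in black. Solid lines are the row with the highest correlation to each and the most correlated among rows with a symbol, such as SUOX and CALCB. The dashed line is the row with the lowest correlation. Rows with a symbol all come from the study's list of genes higher with WT ARGFX, so their rise there is given by the choice. SUOX, in the left panel, moves between 9.42 and 17.4 CPM, whereas CALCB in the right panel climbs from 6.79 to 570.9 CPM alongside LEUTX.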

How the data were processed

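The deposited table holds expected counts per gene, which the authors made by trimming reads with Trimmomatic, pseudoaligning them with kallisto 0.46.1 (per the labels) to the ARS-UCD1.2 transcriptome with ETCHbox sequences added, and summarising with tximport; the values are not normalized. No sample column was left unused. Values were rounded before testing. The low-count filter, TMM factors and quasi-likelihood test of edgeR 4.0.16 (R 4.3.3) were applied to the 15 samples together, p-values were adjusted by Benjamini-Hochberg, and rows were called at an adjusted p under 0.05 and a fold change over 1.5. Tested on simulated counts for WT ARGFX against control (14264 genes), it recovered 99.5% of 200 genes changed 2-fold, with 4 false calls. Those genes were drawn from rows averaging over 5 CPM, and their simulated spread followed the fitted trend. The untransfected ETCHbox rows lie far below that level, so the simulation does not show how well a change in them is found. Levels of single rows were compared by exact permutation of samples in Python (scipy 1.17.1). Poisson and binomial intervals have 95% confidence and cover counting error only, not the spread between samples. The study's TPM threshold was replaced by a mean CPM above 5, as an alternative; DESeq2 1.42.0 was another. The named rows were every ETCHbox row, the row most and least correlated with ARGFX and LEUTX, the 5 most correlated with a symbol for each, and list members that could be paired. The members and lists were chosen with earlier results of these data known, and TPRX3 was singled out after its values were seen. Lists of OTX family (3 genes), other PRD-class (35) and early embryonic genes (18) could not be paired with rows: the RefSeq table used (ARS-UCD2.0) gave no Ensembl identifiers. DPRX was not analysed here.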

Additional observations from a re-analysis of the deposited data

Results flagged for a closer look

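In 7 of 12 groups of 4 samples, 1 sample lay apart from the others by Dixon's criterion, which chance gives for about 1 group in 20. ARGFX in WT ARGFX replicate 1 stood at 4505 CPM, against 3039 to 3175 CPM in the other WT ARGFX samples. The remaining 6 were rows with counts in 1 sample and 0 in the others of its group: ARGFX in control replicate 4 (0.0381 CPM), ARGFX in LEUTX replicate 2 (0.2001 CPM), LEUTX in control replicate 1 (0.0356 CPM), and TPRX1 in control replicate 3 (0.0687 CPM), in WT ARGFX unnumbered a (0.0904 CPM) and in LEUTX replicate 2 (0.0334 CPM). Such groups meet the criterion whatever the size of the single value.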

How the results depend on the processing

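Untransfected ETCHbox rows rested on at most 11.29 counts per sample and groups on 3 or 4 samples, ARGFX and LEUTX fractions were complementary, and a pair of columns shared a header. Of 946 values under alternatives, 885 were counted as unchanged. For fold changes this meant the same direction and side of the threshold, and for levels a move smaller than the spread. Numbers of rows called were counted as unchanged when they stayed near the main number, which allowed sizeable shifts. For rows higher with WT ARGFX, 668 (only the groups compared) was counted as unchanged from 877, whereas 570 (mean CPM above 5) was not. The call of LEUTX with mutant ARGFX (main log2 fold change 3.87) was lost with only the groups compared (3.96, adjusted p = 0.1) and ranged from 3.10 to 5.58 as each sample was left out (adjusted p 0.00547 to 0.136), so that the number of ETCHbox rows called higher with mutant ARGFX was 2 or 1. ARGFX in LEUTX samples ranged from -1.69 to 3.77 in log2 fold change and reversed, to -1.69, without LEUTX replicate 2, the 1 LEUTX sample with ARGFX counts. LEUTX, lower with WT than with mutant ARGFX but not called, passed the threshold without mutant replicate 3 (-2.87, adjusted p = 0.027), and 0 to 1 ETCHbox rows were called lower there. TPRX3 was lower with WT ARGFX under every scaling tried (difference -0.137 CPM in the main analysis, exact permutation p = 0.0286 in each); without 1 sample the difference ranged from -0.172 to -0.0931 CPM, where 3 against 4 samples cannot give an exact permutation p below 0.0571.

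With a mean CPM above 5, the rows called higher and lower became 570 and 605 with WT ARGFX (877 and 978 in the main analysis), 1141 and 1258 with LEUTX (1827 and 1990) and 838 and 1079 for LEUTX against WT ARGFX (1401 and 1686), with 119 higher with mutant ARGFX (180) and 35 higher with WT than mutant ARGFX (55). With no fold change threshold they were 2247 and 2167 with WT ARGFX, 607 and 854 with mutant ARGFX, 3155 and 3536 with LEUTX, and 2514 and 2998 for LEUTX against WT ARGFX. Leaving out 1 sample gave 114 to 251 rows higher with mutant ARGFX, 114 without mutant replicate 1 and 115 without mutant replicate 3.

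Same-numbered samples did not deviate together (16 pairs, r -0.298 to 0.375, 6 of them over 0.1), and 5 of 13 numbered samples correlated best with their own number. With the replicate number as a block, the LEUTX call with mutant ARGFX was lost (3.89, adjusted p = 0.0636), which left 1 ETCHbox row called higher there, and 28 rows were higher with WT than mutant ARGFX, against 37 without the block in the same samples.

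The rows most like ARGFX and LEUTX depended on the measure. By Spearman correlation ENSBTAG00000039958.3 had 0.79 with ARGFX and ENSBTAG00000017213.3 -0.87, and ENSBTAG00000046944.2 had 0.78 with LEUTX and ENSBTAG00000015751.4 -0.69. In rank these rows were 105, 7, 210 and 594, in place of 1. With a pseudocount of 0.1 the LEUTX values were 0.99 and -0.99. As each sample was left out, the 4 correlations ranged from 0.97 to 0.98, -0.97 to -0.95, 0.9993 to 0.9996 and -0.9968 to -0.9951; ENSBTAG00000046944.2 fell to rank 2 without LEUTX replicate 2, 3 or 4, and ENSBTAG00000017213.3 to rank 2 without control replicate 1 or 3, WT ARGFX unnumbered b or mutant replicate 2.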
